A study of Mus musculus with 8 samples.

Results

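The p53 target genes described here are 31 mouse genes named by symbol. They are p53 itself (Trp53), its inhibitors Mdm2 and Mdm4, and genes that p53 is known to activate. The rule that names them uses no measured value, but they were chosen with earlier results of these data known. On the array, 29 of the 31 had a probe set with their symbol alone, among 18193 genes so named. Trp53 and Gdf15, which encodes a secreted stress cytokine, were not analysed here. The 29 genes had 58 probe sets of the 45037 on the array, and each gene was read at the probe set with the highest mean log2 intensity over the 8 arrays, with its other probe sets given where they bear on a result.

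The study used leukemia lines from E2a-/- mice, which lack the E proteins of the E2a gene and develop T cell acute lymphoblastic leukemia. There were 4 groups of 2 arrays, all of strain FVB/NJ: the E2a-/-Lef1F/F line after MigR1-Cre, the same line after MigR1, the E2a-/- line after MigR1-Cre and the same line after MigR1. Lef1F/F stands for loxP sites around the part of Lef1 that encodes the DNA binding domain, and the E2a-/- line carries no such sites. MigR1 is a retrovirus that expresses GFP, MigR1-Cre expresses Cre as well, and GFP+ cells were taken 72 h after infection. Both lines had been grown out of the thymus of moribund mice, all groups lack E2a, and each genotype is represented by 1 line, so line and genotype cannot be told apart. Nothing in the sources says whether the 2 arrays of a group came from separate infections, and the spread that the p-values rest on may therefore be technical. Groups were taken from the sample titles, since another label gives the other vector for Lef1F/F arrays titled MigR1 and for E2a-/- arrays titled Cre. Array numbers within a group follow record order only.

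p53 is a transcription factor that is held at a low level by Mdm2, a ubiquitin ligase, and by Mdm4, its partner. DNA breaks activate the kinases Atm and Atr, which release p53 from these inhibitors, and p53 then activates genes for growth arrest, DNA repair and cell death, together with Mdm2 itself. Thymocytes and the leukemias that arise from them are known for a strong apoptotic response to p53, and Cre, an enzyme that cuts DNA at loxP sites, can also cut similar sequences in the genome. The question was therefore whether these genes differed 72 h after Cre, with or without loxP sites in Lef1, and how the lines compared without Cre.

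p53 binds pairs of a decamer, the p53 half-site, which is made of 3 purines, a C, 2 bases that are A or T, a G and 3 pyrimidines, and which reads the same way on both strands. The search covered RefSeq promoter windows (GRCm38.p6) of 250 bases before to 50 bases after a transcript start. A perfect half-site was present in 9 of the 21 measured members that have a window (Mdm2, Ccng1, Gadd45a, Sesn1, Ddit4l, Aen, Ei24, Polk and Rps27l), or 42.9%, and in 2582 of 27025 genes, or 9.55%. The match is a description of these letters only. The stretches of Mdm2, Ccng1, Gadd45a and Aen were taken from the 9 members with a half-site, because the results below dwell on these genes. Other members that the results dwell on, such as Trp53inp1, Zmat3, Fas, Apaf1 and Pidd1, are not among the 9. Cdkn1a, the gene for the CDK inhibitor p21, is shown because it is the best known p53 target and is not a member. Each is written 5′ to 3′ along its gene's strand, with the half-site in capitals.
Mdm2: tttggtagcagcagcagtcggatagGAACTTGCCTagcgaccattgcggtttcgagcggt
Ccng1: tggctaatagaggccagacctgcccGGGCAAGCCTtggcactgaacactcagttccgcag
Gadd45a: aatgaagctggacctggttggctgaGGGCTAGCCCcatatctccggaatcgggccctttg
Aen: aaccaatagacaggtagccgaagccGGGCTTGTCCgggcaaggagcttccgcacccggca
Cdkn1a: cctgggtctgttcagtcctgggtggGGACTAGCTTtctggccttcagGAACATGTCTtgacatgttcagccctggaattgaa
These stretches lie at chr10:117710910-117710969 (minus strand), chr11:40755437-40755496 (minus), chr6:67037413-67037472 (minus), chr7:78895912-78895971 (plus) and chr17:29090881-29090962 (plus) in that order. The Mdm2 half-site begins 186 bases before the start, that of Ccng1 185, that of Gadd45a 40 and that of Aen 121. The Aen stretch belongs to the downstream of 2 transcript starts and crosses the annotated 5′ end of the gene at position 78895927. Cdkn1a held 2 perfect half-sites separated by 12 bases, which counted as a full site in this search. The 10 bases right after its second half-site match the pattern at all but the first base, and they were not marked or counted. A full site, with up to 13 bases between its half-sites, was found in 20 of the 27025 genes, or 0.074%, and in 0 of the 21 members.

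Lef1 intensity was 1903 and 1678 after MigR1-Cre and 6918 and 6126 after MigR1 in the Lef1F/F line, on the linear scale of the table, and fell by 1.87 on the log2 scale (limma adjusted p = 0.000703). The E2a-/- line had 3008 and 3416 after MigR1-Cre and 3288 and 3337 after MigR1. The second Lef1 probe set gave 236 and 237, against 1485 and 1262, in the Lef1F/F line and 605 and 628, against 610 and 753, in the E2a-/- line. The order of these values fits the titles in the Lef1F/F line. In the E2a-/- line, which has no loxP sites in Lef1, the vectors overlapped at both probe sets. Lef1 therefore cannot check the titles of the E2a-/- arrays, and the results of Cre in that line rest on the titles alone. The RNA came from bulk samples, in which fewer cells with a transcript and less of it per cell cannot be told apart. T cell markers summed to 23431 to 30219 over the 8 arrays, although Cd4 and Cd5 were dim throughout. All 6 measured B cell, 7 myeloid and 4 natural killer cell markers were dim, below 180, which is 2 times the median of the table. Of 3 erythroid markers 2 were dim, and the highest value was 274. Of 7 stromal and endothelial markers only 4 were dim. The sums of these 7 were 953 to 1101 in the Lef1F/F line and 4800 to 5071 in the E2a-/- line.

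None of the 29 members differed between MigR1-Cre and MigR1 at an adjusted p under 0.05, in either line. In the Lef1F/F line the count was 0 of 29, and 0.286% of all named genes passed. The E2a-/- count was also 0 of 29, and 0% of all genes passed. With an unadjusted p under 0.05 there were 2 members in the Lef1F/F line, Gadd45a and Aen, where 6.28% of all genes had such a p, and 1 in the E2a-/- line, Ccng1, where 1.7% did. With trend and robust moderation the adjusted counts were also 0, but Gadd45a passed in the Lef1F/F line in other limma fits. These averaged the probe sets of each gene (adjusted p = 0.0317) or treated same-numbered Lef1F/F arrays as a block (adjusted p = 0.00832). The block raised the calls among all probe sets in that line from 75 to 345. The median log2 difference of the members was 0.02 in the Lef1F/F line and 0.04 in the E2a-/- line, and that of all genes was 0.00 in both to 2 decimals. Leaving out 1 array moved the median to between -0.03 and 0.04 in the Lef1F/F line, where it was below 0 without MigR1 array 1 (-0.03) or MigR1-Cre array 2 (-0.01), and to between 0.00 (without MigR1-Cre array 1) and 0.06 (without MigR1-Cre array 2) in the E2a-/- line. Differences ran from -0.47 to 0.33 in the Lef1F/F line and from -0.10 to 0.28 in the E2a-/- line.

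The intervals bound a rise only against the spread between the 2 arrays of a group, which may be technical. They do not cover a spread between separate infections. The 95% interval of a member's difference reached 0.17 to each side at the median. For each gene its spread was pooled over the 4 groups, as for every SE below, so it is not a line's own scatter. Over all probe sets, replicate arrays differed with an SD of 0.19 (MigR1-Cre) and 0.18 (MigR1) in the Lef1F/F line. In the E2a-/- line these were 0.12 and 0.11. Over the members they were 0.15 and 0.18 in the Lef1F/F line and 0.15 and 0.09 in the E2a-/- line. Its upper end lay under a 1.5-fold rise for 28 of 29 members in the Lef1F/F line, Trp53inp1 being the exception, and for 28 of 29 in the E2a-/- line, with Zmat3 the exception. Only 1 member, Gadd45a in the Lef1F/F line, had an interval that reached past a 1.5-fold decrease. These bounds weigh less for dim genes, whose intensities compress a difference. The members Plk2, Ddit4l, Pmaip1, Perp, Tnfrsf10b, Eda2r and Dcxr lay below the median of the table (89.8) on all 8 arrays, and Plk3, Phlda3 and Fas brought those below 180 to 10 of 29.

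**Figure D1:**
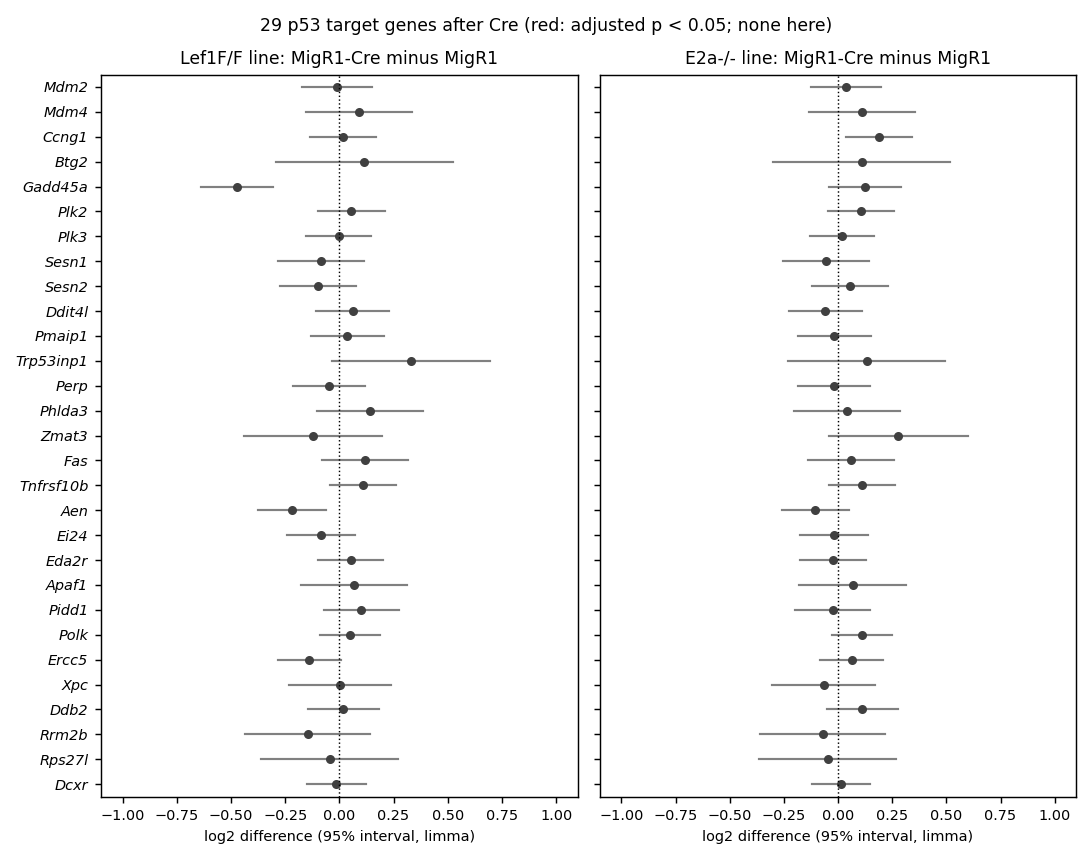
Log2 difference of MigR1-Cre minus MigR1 (horizontal axes) for the 29 measured p53 target genes in the Lef1F/F line (left) and the E2a-/- line (right). Points are limma estimates from 2 arrays against 2, and bars are 95% intervals whose spread is pooled over all 4 groups. Most bars cross 0, Gadd45a (-0.47) and Aen (-0.22) lie below it in the Lef1F/F line and Ccng1 (0.19) above it in the E2a-/- line, and no gene passed after adjustment.

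The p53 inhibitors did not pass in either line. Mdm2, a direct target that responds early to p53, had intensities of 691 and 659 after MigR1-Cre and 670 and 691 after MigR1 in the Lef1F/F line, a log2 difference of -0.01 with a 95% interval of -0.17 to 0.15, and it lay on either side of 0 when 1 array was left out. The E2a-/- arrays had 740 and 703 after MigR1-Cre and 738 and 670 after MigR1, a difference of 0.04 (interval -0.12 to 0.20). The arrays of both vectors overlapped in both lines. The other 2 Mdm2 probe sets, both dimmer, gave -0.04 and -0.03 in the Lef1F/F line and 0.07 and 0.02 in the E2a-/- line. Mdm4 gave 0.09 in the Lef1F/F line and 0.11 in the E2a-/- line (SE 0.11 each), with 1 high array, 896, in the E2a-/- MigR1-Cre group.

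Among the 8 genes of growth arrest and stress kinases, Gadd45a, which encodes a stress protein that binds PCNA and stress kinases, was the furthest from 0. It had 232 and 239 after MigR1-Cre and 329 and 324 after MigR1 in the Lef1F/F line. Both Cre arrays lay below both MigR1 arrays, and the log2 difference was -0.47 ± 0.07 (SE, as for every later ±), with a limma adjusted p of 0.0888. Gadd45a in the E2a-/- line had 264 and 289 after MigR1-Cre and 242 and 266 after MigR1, a difference of 0.12 ± 0.07, and the arrays overlapped. The effect of Cre in the Lef1F/F line minus that in the E2a-/- line was -0.60 ± 0.10 for Gadd45a, with an unadjusted p of 0.000378 and an adjusted p of 0.308. Gadd45a is known to rise when p53 is activated. The call depended on the fit, since 2 alternatives gave an adjusted p under 0.05 in the Lef1F/F line and 1 of them gave 0.0416 for the difference between the lines. Gadd45a has 1 probe set on the array, so no second probe set bears on the value.

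Ccng1, which encodes cyclin G and is among the most regularly induced p53 targets, had 1484 and 1531 after MigR1-Cre and 1310 and 1333 after MigR1 in the E2a-/- line. The 4 arrays did not overlap, with a log2 difference of 0.19 ± 0.07 (unadjusted p = 0.0212, limma adjusted p = 1). Its other 2 probe sets gave 0.23 ± 0.14 and 0.14 ± 0.24 there. In the Lef1F/F line Ccng1 had 1084 and 1198 after MigR1-Cre and 1113 and 1141 after MigR1, a difference of 0.02 ± 0.07 with the MigR1 arrays inside the range of the Cre arrays. The effects in the lines differed by -0.17 ± 0.09 (adjusted p = 1). The antiproliferative gene Btg2 gave 0.12 ± 0.18 in the Lef1F/F line and 0.11 ± 0.18 in the E2a-/- line. Sesn1 and Sesn2, which encode the sestrins that restrain mTORC1, gave -0.09 and -0.10 in the Lef1F/F line and -0.06 and 0.06 in the E2a-/- line. The other 3 Sesn1 probe sets gave 0.15, -0.07 and 0.03 in the Lef1F/F line, so they did not share a direction. The polo-like kinase genes Plk2 and Plk3 and Ddit4l, a relative of the mTOR inhibitor Ddit4, were dim and lay between -0.06 and 0.11 in both lines.

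**Figure D2:**
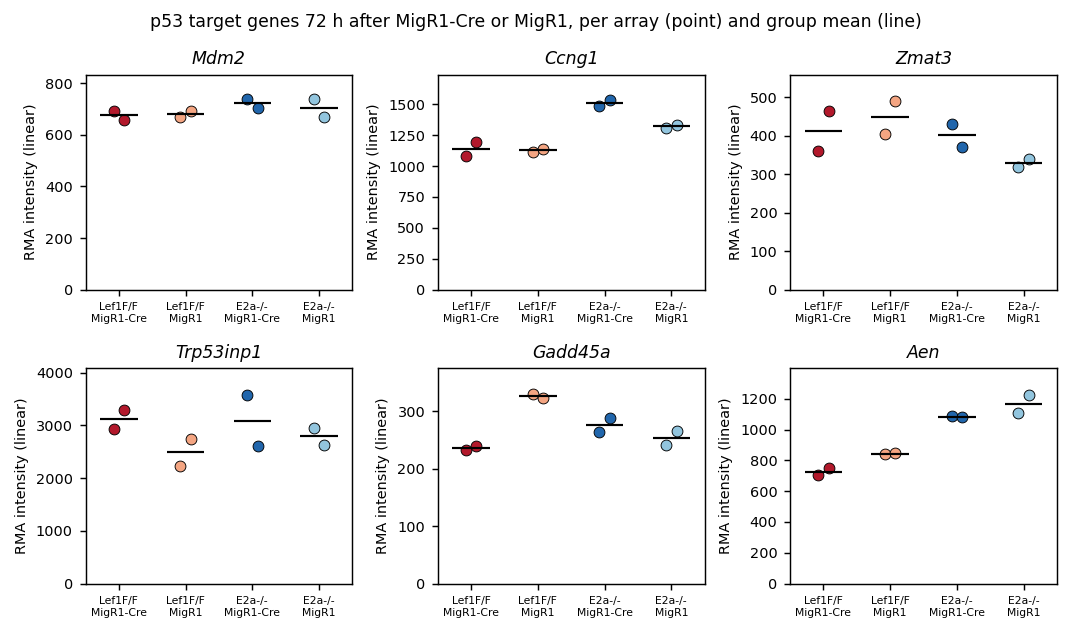
Linear RMA intensity (vertical axes, from 0) of Mdm2, Ccng1, Zmat3, Trp53inp1, Gadd45a and Aen in the 4 groups; each point is 1 array and each line the mean of 2 arrays. Gadd45a stood at 232 and 239 in the Lef1F/F MigR1-Cre arrays and at 242 to 329 in the other 6, Aen was lower in the Lef1F/F line than in the E2a-/- line on every array, and Mdm2 stayed between 659 and 740.

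The 12 genes of cell death also had 0 members past the threshold in either line. Above 0 lay 8 of 12 in the Lef1F/F line (49.5% of all genes) and 6 of 12 in the E2a-/- line (49.6%). Trp53inp1, which encodes a p53 cofactor that also takes part in autophagy, had the largest positive difference of any member in the Lef1F/F line. It stood at 2937 and 3288 after MigR1-Cre and at 2227 and 2741 after MigR1, a difference of 0.33 ± 0.16 (adjusted p = 1). The groups did not overlap, but the MigR1 arrays differed by more than the gap between the groups. In the E2a-/- line Trp53inp1 had 3575 and 2604 after MigR1-Cre and 2944 and 2634 after MigR1 (0.13 ± 0.16), and the second, dim probe set gave 0.13 in the Lef1F/F line and -0.04 in the E2a-/- line.

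Aen, which encodes an apoptosis-enhancing nuclease, had 703 and 749 after MigR1-Cre and 843 and 846 after MigR1 in the Lef1F/F line, a difference of -0.22 ± 0.07 (unadjusted p = 0.0119, adjusted p = 0.745). The groups did not overlap, and its other 3 probe sets gave -0.27, -0.15 and -0.18. In the E2a-/- line Aen had 1086 and 1083 after MigR1-Cre and 1111 and 1223 after MigR1 (-0.10 ± 0.07), while its other probe sets gave 0.05, -0.14 and -0.01. Aen was thus below 0 at all 4 probe sets in the Lef1F/F line and at 3 of 4 in the E2a-/- line.

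Zmat3, which encodes an RNA binding protein that regulates splicing, had 430 and 371 after MigR1-Cre and 319 and 340 after MigR1 in the E2a-/- line, the largest difference of a member there (0.28 ± 0.14, adjusted p = 1). These arrays did not overlap. In the Lef1F/F line it had 361 and 465 after MigR1-Cre and 405 and 490 after MigR1 (-0.12 ± 0.14), where array 2 was the higher in both groups. The difference between the lines was -0.40 ± 0.20 (adjusted p = 1). Phlda3, an inhibitor of Akt, gave 0.14 ± 0.11 in the Lef1F/F line and 0.04 ± 0.11 in the E2a-/- line. The death receptor gene Fas gave 0.12 ± 0.09 and Tnfrsf10b, the mouse TRAIL receptor gene, 0.11 ± 0.07 in the Lef1F/F line, and in the E2a-/- line they gave 0.06 and 0.11. Pmaip1, which encodes the BH3 protein Noxa, stood at 41.9 to 47.9 on all arrays and Perp, a membrane protein gene of p53-dependent death, at 45.5 to 50.6, so neither was above the level of a dim probe set in any group. Ei24, which encodes a protein of the endoplasmic reticulum, gave -0.08, Eda2r, an ectodysplasin receptor gene, 0.05, Apaf1, the apoptosome core, 0.07, and Pidd1, a scaffold protein of caspase activation, 0.10 in the Lef1F/F line, and these 4 gave -0.02, -0.02, 0.07 and -0.02 in the E2a-/- line.

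Of the 5 genes of DNA repair and nucleotide supply, none passed. Ercc5, the nucleotide excision nuclease XPG, had 246 and 225 after MigR1-Cre and 258 and 260 after MigR1 in the Lef1F/F line (-0.14 ± 0.06) and 297 and 293 after MigR1-Cre and 277 and 289 after MigR1 in the E2a-/- line (0.06 ± 0.06). Neither line's groups overlapped, and the differences point opposite ways, with a difference between the lines of -0.20 ± 0.09 (adjusted p = 1). The second Ercc5 probe set was dim and gave -0.02 in the Lef1F/F line and 0.13 in the E2a-/- line. Polk, a translesion DNA polymerase, had 264 and 261 after MigR1-Cre and 260 and 247 after MigR1 in the Lef1F/F line and 268 and 265 after MigR1-Cre and 241 and 253 after MigR1 in the E2a-/- line. The differences were 0.05 ± 0.06 in the Lef1F/F line and 0.11 ± 0.06 in the E2a-/- line, and 0.08 and 0.10 at the second Polk probe set. The damage recognition genes Xpc and Ddb2 gave 0.00 and 0.02 in the Lef1F/F line and -0.07 and 0.11 in the E2a-/- line. Rrm2b, the p53-induced ribonucleotide reductase subunit, gave -0.15 ± 0.13 in the Lef1F/F line and -0.07 ± 0.13 in the E2a-/- line. Of the remaining targets, Dcxr, a xylulose reductase, was dim, with -0.01 in the Lef1F/F line and 0.01 in the E2a-/- line. Rps27l, a ribosomal protein gene that p53 activates in human cells, was the brightest member, with 6489 and 5355 after MigR1-Cre and 7014 and 5266 after MigR1 in the Lef1F/F line and 6793 to 7272 in the E2a-/- line. Its difference in the Lef1F/F line was -0.04 ± 0.14, and array 2 was clearly the lower in both Lef1F/F groups.

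Where the arrays of a comparison did not overlap, the members went both ways in the Lef1F/F line. There 5 of 29 lay higher after MigR1-Cre (Mdm4, Trp53inp1, Phlda3, Tnfrsf10b and Polk, 17.2%), where 16.4% of all genes did. Another 6 lay lower (Gadd45a, Sesn1, Sesn2, Aen, Ei24 and Ercc5, 20.7%), where 16.1% did. Mdm4 kept its direction at 3 of its 4 probe sets (-0.06 at the exception) and Sesn1 at 2 of 4 (0.15 and 0.03 at the others). The rest kept theirs at all their probe sets. In the E2a-/- line 9 lay higher (Ccng1, Btg2, Plk2, Zmat3, Tnfrsf10b, Apaf1, Polk, Ercc5 and Ddb2; 31%), where 15.8% of all genes did, and 2 lay lower (Pmaip1 and Aen; 6.9%), where 15.6% did. The 9 had differences of 0.06 to 0.28, but 3 of them lay below 0 there at another probe set: Apaf1 at -0.15, with 98.1 and 102 after MigR1-Cre and 105 and 118 after MigR1, Plk2 at -0.09 and Ddb2 at -0.03. Of all members, 18 of 29 (62.1%) were above 0 in that line, where 49.6% of all genes were. In the Lef1F/F line 16 of 29 (55.2%) were, beside 49.5% of all genes. Genes of dividing cells lay above 0 in the E2a-/- line too, 7 of 7 measured, with a median of 0.13. Their summed intensities there were 14987 to 18253 after MigR1-Cre and 14565 to 15542 after MigR1. In the Lef1F/F line 6 of the 7 lay above 0, with a median of 0.06. None of them passed after Cre in either line, and their part in the result was not tested.

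In the test of the Lef1F/F effect of Cre minus the E2a-/- effect no member passed, with 0 of 29 called and 0.033% of all genes called. Gadd45a passed it in 1 alternative fit (adjusted p = 0.0416). It was the 1 member with an unadjusted p under 0.05, where 4.1% of all genes had one. The median of the difference was -0.03 over the members. The interval of a member's difference reached 0.24 to each side at the median, so the result does not show that the effects were alike.

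Other parts of the pathway likewise had 0 genes past the threshold after Cre in either line at their brightest probe sets, among 11 other p53 targets, 15 regulators of p53 and 21 genes of DNA damage signalling and double strand break repair. The median differences of these lists were 0.04, 0.02 and -0.02 in the Lef1F/F line and 0.02, -0.01 and -0.00 in the E2a-/- line. Cdkn1a stood apart at its second, dimmer probe set, where it had 756 and 761 after MigR1-Cre and 410 and 427 after MigR1 in the Lef1F/F line, a rise of 0.86 ± 0.06 (adjusted p = 0.00282), with an adjusted p of at most 0.0290 when any 1 array was left out. At the brighter probe set Cdkn1a had 1152 and 958, against 570 and 749 (0.68 ± 0.14, adjusted p = 0.237). In the E2a-/- line the brighter probe set had 1345 and 1188 after MigR1-Cre and 1160 and 1154 after MigR1, and the dimmer 850 and 844 after MigR1-Cre and 799 and 839 after MigR1. Cre arrays of the Lef1F/F line were therefore nearer to the E2a-/- level of Cdkn1a than MigR1 arrays of that line were. The difference between the lines was 0.81 at the dimmer probe set (adjusted p = 0.0476, and 0.0999 to 0.488 without any 1 array). Bbc3, the BH3 protein Puma, gave 0.04 in the Lef1F/F line and 0.01 in the E2a-/- line, and Ppm1d, a phosphatase gene that p53 activates, -0.10 in the Lef1F/F line and 0.02 in the E2a-/- line. Of the regulators, Cdkn2a, which encodes the Mdm2 inhibitor Arf, was dim at 56.0 to 66.8 on all arrays (0.10 in the Lef1F/F line), and Rchy1, a ubiquitin ligase for p53, gave -0.08.

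The lines themselves differed more than the vectors did. In the MigR1 arrays, without Cre, 5 of 29 members passed between the Lef1F/F line and the E2a-/- line, or 17.2%, where 14.6% of all genes passed. In the Lef1F/F line 2 were higher, Gadd45a and Apaf1 (6.9%, where 8.71% of all genes were), and 3 were lower, Fas, Aen and Pidd1 (10.3%, where 5.88% were). The median of the members was -0.06 and the median size 0.15, where all genes had a median size of 0.09. Markers separated the lines as well: Cd8a stood at 223 to 253 in the Lef1F/F line and at 1746 to 1989 in the E2a-/- line, and Col1a2, a collagen gene of stromal cells, at 252 to 311 and at 4131 to 4377. By list, 3 of 10 T cell markers were higher and 2 lower, 1 of 6 B cell markers was lower, 1 of 7 stromal and endothelial markers was higher and 1 lower, and 0 of 7 myeloid, 4 natural killer cell and 3 erythroid markers passed. The part of such line differences in the p53 targets was not tested.

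Fas, a cell surface death receptor that p53 can induce, had 89.0 and 105 in the Lef1F/F MigR1 arrays and 149 and 143 in the E2a-/- MigR1 arrays, which is -0.59 ± 0.09 on the log2 scale (adjusted p = 0.0033). The Cre arrays showed the same split, with 105 and 105 in the Lef1F/F line and 158 and 146 in the E2a-/- line, and all of them were dim. Aen had 843 and 846, against 1111 and 1223, a difference of -0.46 ± 0.07 (adjusted p = 0.0033), and of its other 3 probe sets 1 passed as well (-0.41, adjusted p = 0.0093) and 2 did not (-0.26 and 0.02). Without E2a-/- MigR1 array 1, E2a-/- MigR1 array 2 or Lef1F/F MigR1 array 2, this second Aen probe set did not pass (adjusted p up to 0.0892). Fas and Aen at its brightest probe set kept their call when any 1 array was left out.

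Apaf1, which assembles the apoptosome with cytochrome c, had 525 and 638 in the Lef1F/F MigR1 arrays and 345 and 372 in the E2a-/- MigR1 arrays, a difference of 0.69 ± 0.11 (adjusted p = 0.00454). The Cre arrays had 563 and 653 in the Lef1F/F line and 375 and 375 in the E2a-/- line, so all 4 arrays of the first lay above all 4 of the second. Without E2a-/- MigR1 array 1, Apaf1 did not pass (0.64, adjusted p = 0.0567). Its second probe set had 122 and 238, against 105 and 118 (0.62, adjusted p = 0.457), and was the higher on array 2 of the Lef1F/F line under both vectors, at 273 after MigR1-Cre, where array 1 had 114.

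Pidd1 had 312 and 273 in the Lef1F/F MigR1 arrays and 379 and 360 in the E2a-/- MigR1 arrays, a difference of -0.34 ± 0.08 (adjusted p = 0.0246). It is the least firm of the 5, since it did not pass without E2a-/- MigR1 array 1 or 2, E2a-/- MigR1-Cre array 1 or 2, or Lef1F/F MigR1 array 2 (adjusted p = 0.177, 0.0944, 0.05, 0.05 and 0.132). Gadd45a had 329 and 324, against 242 and 266 (0.37 ± 0.07, adjusted p = 0.0148), and did not pass without E2a-/- MigR1 array 1, Lef1F/F MigR1 array 1 or Lef1F/F MigR1 array 2 (adjusted p = 0.126, 0.0521 and 0.0576). Its higher level in the Lef1F/F line was seen in the MigR1 arrays and not in the Cre arrays, where the Lef1F/F line had 232 and 239 and the E2a-/- line 264 and 289. Without E2a-/- MigR1 array 1 only Fas and Aen kept their call, and the share of all genes passing in that fit is not given here.

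**Figure D3:**
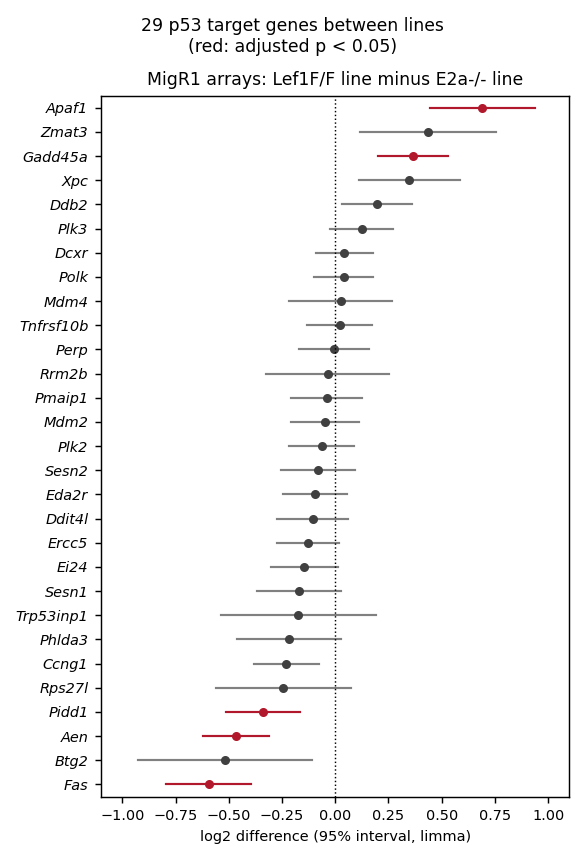
Log2 difference of the Lef1F/F line minus the E2a-/- line in the MigR1 arrays (horizontal axis) for the 29 measured p53 target genes, sorted. Points are limma estimates from 2 arrays against 2, and bars are 95% intervals whose spread is pooled over all 8 arrays. Red marks an adjusted p under 0.05. Apaf1 (0.69) and Gadd45a (0.37) lie above 0 in red, Fas (-0.59), Aen (-0.46) and Pidd1 (-0.34) below it.

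The other 24 members did not pass between the lines. Zmat3 (0.44 ± 0.14, adjusted p = 0.0968), Xpc (0.35 ± 0.10, adjusted p = 0.0754) and Ccng1 (-0.23 ± 0.07, adjusted p = 0.0687) came nearest. Btg2 had 722 and 1024 in the Lef1F/F MigR1 arrays and 1222 and 1242 in the E2a-/- MigR1 arrays (-0.52 ± 0.18, adjusted p = 0.121), while its second probe set had 721 and 648, against 1098 and 1029, and passed (-0.64 ± 0.10, adjusted p = 0.00601), though not without E2a-/- MigR1 array 1 (adjusted p = 0.0694). On the brighter probe set array 2 of the Lef1F/F line was the higher under both vectors, and on the second array 1 was. At their brightest probe sets Mdm2 gave -0.05 ± 0.07 (interval -0.21 to 0.11) and Mdm4 0.03 ± 0.11 (interval -0.22 to 0.27). The other Mdm2 probe sets gave 0.15 and 0.08, and the other Mdm4 probe sets -0.09, 0.04 and -0.06. No probe set of either inhibitor passed, though at the Mdm4 probe set with -0.09 both Lef1F/F MigR1 arrays lay below both E2a-/- MigR1 arrays.

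Of the pathway genes outside the 29, Cdkn1a was lower in the Lef1F/F line at both probe sets, by -0.82 ± 0.14 at the brighter (adjusted p = 0.00666; 0.0651 and 0.0615 without E2a-/- MigR1 array 1 or 2) and by -0.97 ± 0.06 at the dimmer (adjusted p = 2.56e-05). Fbxw7, a ubiquitin ligase subunit that degrades Notch and Myc, was lower (-0.40 ± 0.08, adjusted p = 0.0123), with an adjusted p of up to 0.104 without E2a-/- MigR1 array 1, E2a-/- MigR1 array 2 or Lef1F/F MigR1 array 2. These were the 2 of 11 other targets that passed, where 14.6% of all genes did. Atm, the kinase that signals DNA breaks, had 559 and 542 in the Lef1F/F MigR1 arrays and 825 and 763 in the E2a-/- MigR1 arrays (-0.53 ± 0.06, adjusted p = 0.00106), its Cre arrays had 568 and 563 in the Lef1F/F line and 784 and 766 in the E2a-/- line, and its second probe set gave -0.44 ± 0.07. The call at the brighter Atm probe set held without any 1 array (adjusted p up to 0.0155). Rad50, part of the complex that senses broken ends, was higher (0.33 ± 0.07, adjusted p = 0.0196), but not without E2a-/- MigR1 array 1 or either Lef1F/F MigR1 array (adjusted p up to 0.151). The other 19 of 21 DNA damage genes and all 15 regulators of p53 did not pass. Beside the 14.6% of all genes that passed, these counts do not set the lists apart. Top2a, a gene of dividing cells, was higher in the Lef1F/F line (0.37 ± 0.09, adjusted p = 0.0433), and that call was lost without any 1 of the 4 MigR1 arrays (adjusted p up to 0.277).

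**Figure D4:**
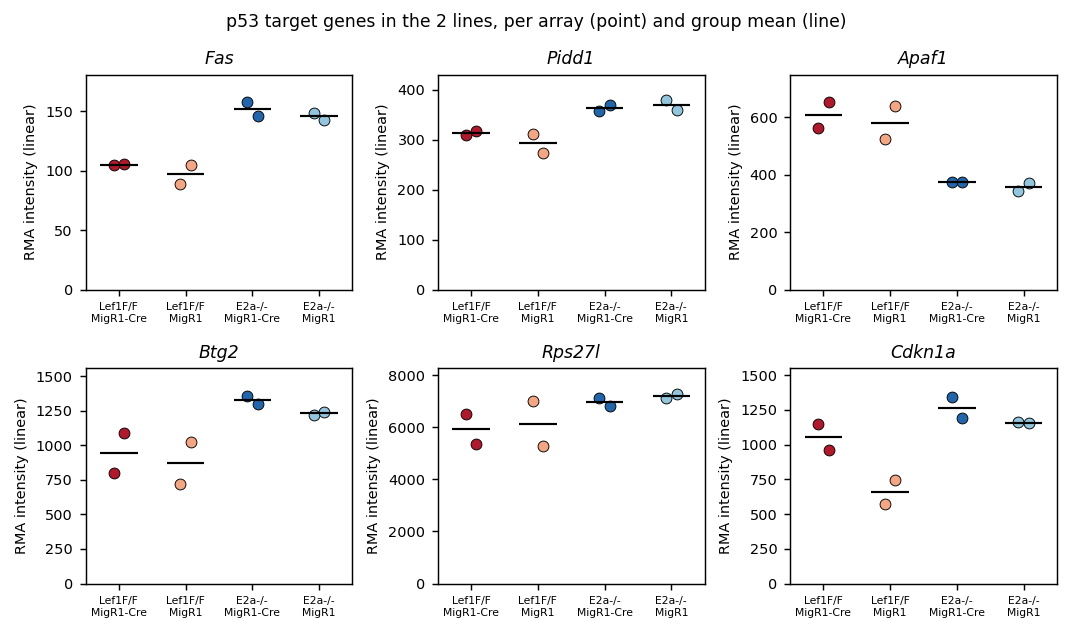
Linear RMA intensity (vertical axes, from 0) of Fas, Pidd1, Apaf1, Btg2, Rps27l and Cdkn1a (brighter probe set) in the 4 groups; each point is 1 array and each line the mean of 2 arrays. All 4 Lef1F/F arrays of Fas (89.0 to 105) lie below the 4 E2a-/- arrays (143 to 158), those of Apaf1 (525 to 653) lie above them (345 to 375), and the 2 Lef1F/F arrays of each group lie far apart for Btg2 and Rps27l.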

How the data were processed

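Total RNA from GFP+ cells was hybridised to 8 Affymetrix mouse 430 arrays (2 per group). The authors normalized the arrays with RMA, and the deposited values are intensity on a linear scale (35.3 to 25588, array medians 88.9 to 91.0). The log2 of each value was taken here. Arrays keep no read depth, and their number limits the precision. Of 45037 probe sets, 34945 had 1 gene symbol in the platform annotation, 932 several and 9160 none.

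Group means were fitted to all 8 arrays with limma (version 3.58.1, R 4.3.3), in 4 contrasts, two-sided, with Benjamini-Hochberg adjustment over all probe sets of a contrast. Checked on simulated data, the fit recovered known changes. That tests the calculation only, and not whether the 2 arrays of a group are independent. All 31 members are named, with every array's value for those past the threshold in any contrast or, where fewer than 4 passed, the 4 with the smallest p, and for Mdm2, Cdkn1a and Lef1. Of other lists, called genes, or the 2 with the smallest p, are named; Bbc3, Ppm1d, Cd8a, Col1a2, Cd4 and Cd5 were chosen after their values were seen. Members, lists and alternatives were chosen with earlier results of these data known. The alternatives were another moderation, a filter on dim probe sets, fits of 4 arrays, means over probe sets, left-out shared probe sets, repeated quantile normalization, an offset of 32, array weights, pairs as a block, lines averaged over vectors and each array left out.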

Additional observations from a re-analysis of the deposited data

How the results depend on the processing

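The counts of members called were 0 after Cre in the E2a-/- line under all alternatives run. In the Lef1F/F line 1 member, Gadd45a, passed when the probe sets of each gene were averaged (adjusted p = 0.0317) and with same-numbered Lef1F/F arrays treated as a block (adjusted p = 0.00832), and the count was 0 under the others. The block also gave 1 call, Gadd45a, for the difference between the lines (adjusted p = 0.0416). Among all probe sets the block raised the calls after Cre in the Lef1F/F line from 75 to 345. The labels do not pair the arrays: in the Lef1F/F line the arrays with the same number correlated at 0.998, and those of the same vector at 0.994, so the pairing is a hint from the data. In the line comparison 5 members became 11 with the block and 9 with lines averaged over both vectors, where Gadd45a did not pass (0.07, adjusted p = 0.471), and 2 to 7 without single arrays; the cause was not tested. Apaf1 did not pass with the mean of all its probe sets (adjusted p = 0.124), nor Pidd1 in a fit of the 4 arrays compared (adjusted p = 0.0702). The brighter Cdkn1a probe set passed in the Lef1F/F line with the block (adjusted p = 0.0219), as did the mean of the Cdkn1a probe sets (0.77, adjusted p = 0.0087). The median of the members after Cre in the Lef1F/F line ran from -0.034 (without Lef1F/F MigR1 array 1) to 0.042 (without Lef1F/F MigR1-Cre array 1). The median difference between the lines turned to 0.00 without Lef1F/F MigR1 array 2, and the E2a-/- median ran from 0.00 to 0.06. Small values changed sign without passing in either fit: Mdm2 in the Lef1F/F line was 0.018 with repeated quantile normalization and -0.046 to 0.023 without single arrays, Mdm2 in the E2a-/- line -0.033 to 0.11 without single arrays, and Ccng1 for the difference between the lines 0.0046 without shared probe sets. Of 391 values of single genes, 367 kept direction and side of the threshold, 5 changed sign in this way, 5 passed newly and 14 no longer passed. No paired analysis was possible from the labels because they give no replicate numbers. Dim probe sets limit what can be said of 10 of 29 members. The 4-array fit gives no difference between the lines by construction.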
